A study of Homo sapiens with 38 samples.

Results

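The response of human fibroblasts to oncogenic ras after depletion of the retinoblastoma protein RB was measured by comparing IMR90 cells carrying a short hairpin RNA against RB (shRB) in 2 states, labelled ras-induced senescence and growing. The 4 arrays compared, 2 senescent and 2 growing, are all those that the labels of experiment 1 give to shRB cells in these states, of 38 arrays in the series. IMR90 is an established line of diploid fibroblasts from fetal lung. Growing and senescent cells of every kind compared here were kept in 10% serum. Growing shRB cells carried the hairpin, with no further treatment named. Senescent shRB cells also carried a hairpin against RB and had entered the state that the labels name as induced by ras. Cells with the empty MLP vector, growing or senescent (n = 2 arrays each), gave the same contrast with RB present, and cells with hairpins against p107 (shp107) or p130 (shp130), the relatives of RB, gave it with RB present and a relative targeted. Experiment 2 held senescent shRB, senescent vector and growing vector cells (n = 2 arrays each) and no growing shRB cells. The ras gene expressed, the time after it and the number of hairpins were not given in the sources used here. Nothing in the labels says whether the 2 arrays of a group came from separate cultures, so p-values measure the spread between arrays, which may be technical. Each array reads RNA of a whole culture, so fewer cells of a kind and less RNA per cell cannot be told apart.

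RB, p107 and p130 are pocket proteins that bind E2F transcription factors and hold E2F target genes silent until cyclin-dependent kinases (CDKs) phosphorylate them at entry into S phase. E2F targets of the first wave encode the helicase, clamp loader, polymerase and nucleotide enzymes of DNA replication. Genes of the later wave, used in mitosis, are controlled mostly through the MuvB complex with B-MYB and FOXM1, which acts at the cell cycle homology region (CHR) of their promoters, and p53 represses them through p21 and the DREAM complex that p130 or p107 forms with MuvB. Oncogenic ras first drives fibroblasts to divide and then into senescence, a lasting arrest with p16 and p21 induction, loss of lamin B1 and secretion of interleukins, CXC chemokines and matrix proteases under NF-kB and C/EBP-beta, known as the senescence-associated secretory phenotype.

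The promoters of 6 genes on which the results turn are shown first, to show the short motifs that were counted in 3 groups of genes described below. Each sequence is the 250 bases before the transcription start of the RefSeq gene (GRCh38.p14), written 5′ to 3′ on the strand of the gene. The regions are chr18:657403-657652 on the plus strand for TYMS, chr2:135876444-135876693 on the minus strand for MCM6, chr15:90994536-90994785 on the minus strand for PRC1, chr1:43358731-43358980 on the plus strand for CDC20, chr4:73869143-73869392 on the plus strand for CXCL1 and chr4:73836428-73836677 on the plus strand for CXCL6. TYMS (thymidylate synthase) and MCM6 (a subunit of the replicative helicase) were not called with ras in shRB cells and fell in vector cells, and capitals mark the E2F words TTTCCCGC, TTTCGCGC, TTTGCCGC and TTTGGCGC on either strand. PRC1 (a cross-linker of the central spindle) and CDC20 (an activator of the anaphase-promoting complex) fell in both, and capitals mark the CHR words TTTGAA and TTCGAA on either strand. CXCL1 and CXCL6 (neutrophil chemokines) rose in both, and capitals mark the kB word, GGG and TTTCC with any pair of bases between, on either strand.
TYMS: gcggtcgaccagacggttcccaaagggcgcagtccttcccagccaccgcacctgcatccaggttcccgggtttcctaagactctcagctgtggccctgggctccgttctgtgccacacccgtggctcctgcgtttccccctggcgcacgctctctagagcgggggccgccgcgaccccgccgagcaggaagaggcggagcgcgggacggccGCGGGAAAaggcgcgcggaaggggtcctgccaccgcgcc
MCM6: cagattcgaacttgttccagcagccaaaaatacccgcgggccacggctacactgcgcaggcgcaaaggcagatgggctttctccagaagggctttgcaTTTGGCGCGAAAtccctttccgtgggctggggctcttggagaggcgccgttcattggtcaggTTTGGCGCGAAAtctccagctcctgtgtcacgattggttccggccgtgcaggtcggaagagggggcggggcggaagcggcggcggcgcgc
PRC1: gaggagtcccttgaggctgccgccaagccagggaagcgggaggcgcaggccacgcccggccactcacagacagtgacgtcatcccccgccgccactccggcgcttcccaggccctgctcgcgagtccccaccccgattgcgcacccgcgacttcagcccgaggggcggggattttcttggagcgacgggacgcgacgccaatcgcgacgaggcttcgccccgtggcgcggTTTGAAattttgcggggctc
CDC20: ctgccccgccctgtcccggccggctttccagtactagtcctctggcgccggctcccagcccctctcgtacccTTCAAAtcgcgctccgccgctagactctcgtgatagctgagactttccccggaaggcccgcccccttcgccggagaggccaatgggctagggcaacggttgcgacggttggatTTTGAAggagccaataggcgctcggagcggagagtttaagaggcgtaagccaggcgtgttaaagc
CXCL1: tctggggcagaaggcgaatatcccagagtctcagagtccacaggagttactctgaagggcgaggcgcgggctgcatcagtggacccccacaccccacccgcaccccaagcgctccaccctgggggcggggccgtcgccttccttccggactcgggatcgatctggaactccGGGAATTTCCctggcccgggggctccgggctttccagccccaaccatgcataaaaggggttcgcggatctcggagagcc
CXCL6: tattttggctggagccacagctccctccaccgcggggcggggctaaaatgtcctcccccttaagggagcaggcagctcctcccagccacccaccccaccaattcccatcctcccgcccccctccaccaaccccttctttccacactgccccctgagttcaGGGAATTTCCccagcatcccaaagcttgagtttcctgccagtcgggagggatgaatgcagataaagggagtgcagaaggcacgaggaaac

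The match in TYMS starts 39 bases before the transcription start, and those in MCM6 overlap in 2 clusters that start 152 and 90 bases before it. The CHR word of PRC1 starts 20 bases before the transcription start, those of CDC20 178 and 65 bases, and the kB words of CXCL1 and CXCL6 79 and 90 bases. Over the window from 250 bases before to 50 after the start, an E2F word occurred in 18 of 56 (32.1%) promoters of the replication lists described below, 4 of 51 (7.84%) of the mitosis list and 0 of 18 (0.0%) of the secreted inflammatory list, against 5.52% of the 7123 genes tested that have a promoter in the table. A CHR word occurred in 35 of 51 (68.6%) promoters of the mitosis list and 6 of 56 (10.7%) of the replication lists, against 11.7% of the genes tested. A kB word occurred in 7 of 18 (38.9%) promoters of the inflammatory list, against 2.37%. The words CCAAT and ATTGG, bound by NF-Y, occurred in 74.5% of mitosis, 66.7% of inflammatory and 53.6% of replication promoters, against 37.1% of the genes tested. Over all 27305 promoters of the table, the shares were 3.33% for E2F, 16.6% for CHR, 35.7% for CCAAT and 1.92% for kB words. Within the replication lists the E2F word was present in some genes of either response and absent from others. Of those whose response differed from vector, TYMS, MCM6 and MCM7 hold it in this window, and CDC7, RFC4, TIPIN, FEN1, RRM1, MTHFD1 and SAMHD1 do not. Of those that fell with ras in shRB cells, GINS1, GINS2, CDC6 and RFC3 hold it, and TOP2A, TK1, RRM2 and CAD do not. Of genes tested with a promoter in the table, 24 fell in vector cells, were not called in shRB cells and had a called difference. An E2F word occurred in 5 of these 24 (20.8%). It occurred in 42 of the 806 with a promoter (5.21%) that fell in both vector and shRB cells. These matches describe letters in a fixed window, and binding was not measured.

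Values are log2 expression per gene, each read from its brightest probe set, and were tested for 8511 genes. Changes are differences of group means (n = 2 arrays each) ± standard error from limma, fitted to the 32 arrays of experiment 1, with p adjusted over the 8511 genes by Benjamini-Hochberg and called under 0.05. The median of an array lay between 3.27 and 3.41, so a gene near 3 is at background. The highest value on any array was 13.88, and whether probe sets near it saturate was not tested. A gene with several probe sets was also read as their mean, which made 34 of 125 called changes in shRB cells and 21 of 55 called differences from vector more than 1.5 times smaller, and 2 and 1 larger, among the genes named. The 2 growing shRB arrays correlated with r = 0.9929 over all probe sets and the 2 senescent shRB arrays with r = 0.9848, and with 2 arrays per group their number sets the precision. All 10 fibroblast markers lay above 5 on the growing shRB arrays and 9 on the senescent, with sums of 108.53 to 109.05 and 94.95 to 99.18. None of the 10 epithelial markers (highest value 4.64, MUC1) or 8 matched blood markers (highest 3.63, HBB) reached 5 in either shRB group. Of 10 endothelial markers, TEK and CLDN5 passed the filter, and CLDN5 reached 8.12 on a senescent shRB array while the other 8 stayed under 5 there.

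The target of the hairpin was low in both states. RB1 read 5.59 and 5.19 on the growing and 4.49 and 3.64 on the senescent shRB arrays, against 9.49 and 9.39 on the growing and 9.14 and 9.63 on the senescent vector arrays. No shRB array came near a vector array. RB1 was lower in shRB than in vector cells by 4.05 ± 0.36 when growing and 5.32 ± 0.36 when senescent (adjusted p = 1.8e-06 and 1.95e-09). Within shRB cells it fell a further 1.32 ± 0.36 (adjusted p = 0.0067), a call lost without growing shRB replicate 1 or senescent shRB replicate 2 (adjusted p 0.0754 to 0.13). RBL2, which encodes p130, read 7.72 and 7.88 on the growing and 7.94 and 7.72 on the senescent shRB arrays and RBL1, which encodes p107, 4.02 and 6.05 on the growing and 4.57 and 3.92 on the senescent shRB arrays. Neither changed past the threshold (RBL2 0.03 ± 0.26, adjusted p = 0.951, RBL1 -0.80 ± 0.54, adjusted p = 0.274), and the RBL1 values of the 2 growing arrays differed more than the groups. Without growing shRB replicate 1 the RBL1 change was called, -1.81 (adjusted p = 0.021). HRAS, 1 of the genes for which ras vectors are made, read 8.78 and 8.16 on the growing and 9.15 and 8.18 on the senescent shRB arrays, with overlapping groups and a change of 0.19 ± 0.29 (adjusted p = 0.654). RB1 had an shRB change of -0.61 with the mean of all probe sets.

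In cells with shRB, ras changed expression broadly, with inflammatory cytokine genes at the head of the rises and mitotic genes prominent among the falls. Of 8511 genes, 2794 (32.8%) were called between senescent and growing shRB cells at an adjusted p under 0.05, 1058 higher (12.4%) and 1736 lower (20.4%), and 1857 of them changed at least 2-fold (21.8%). In vector cells 2166 (25.4%) were called, 784 higher (9.21%) and 1382 lower (16.2%). The counts within gene lists below stand beside these shares of all genes. The median change of all genes was -0.13 in shRB and -0.10 in vector cells, and the SD over genes 1.24 and 1.02. Most genes called in vector cells were called in the same direction in shRB cells. Of the 784 genes that rose in vector cells, 538 rose in shRB cells, which is 68.6% of the vector rises and 50.9% of the shRB rises. Of the 1382 that fell in vector cells, 990 fell in shRB cells (71.6% of the vector falls and 57.0% of the shRB falls), 384 were not called and 8 rose. Across genes, which are not independent replicates, the 2 responses had Pearson r = 0.85 and Spearman rho = 0.76; they share no array. Quantile normalization moved the median shRB change to -0.02 and the called genes to 1432 higher and 1506 lower, and arrays set to one median gave 956 higher and 1793 lower. Without growing shRB replicate 1 the rises numbered 703, and without senescent shRB replicate 2 the falls numbered 1052.

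**Figure D1:**
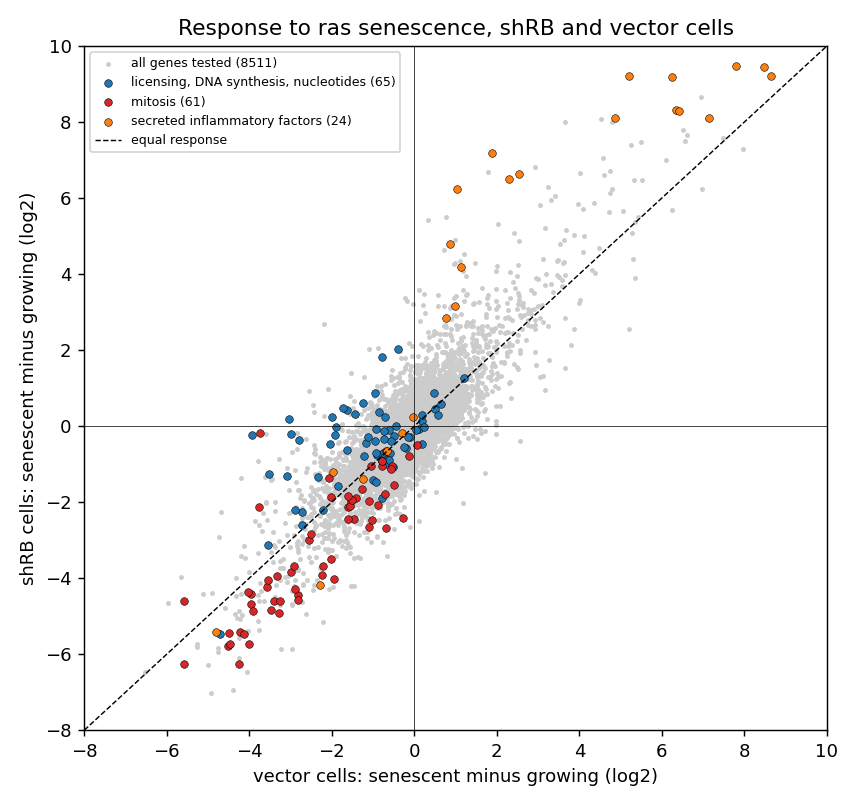
Each point is 1 of the 8511 genes tested, with its log2 change from growing to senescent in vector cells on the x axis and in shRB cells on the y axis (n = 2 arrays per group), and the dashed line marks equal change. Blue points (licensing, DNA synthesis and nucleotide genes) lie mostly above the line to the left of 0, red points (mitosis genes) lie low along it, and orange points (secreted inflammatory factors) reach 9.48 on the y axis.

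Some genes that load and fire the replicative helicase, MCM6 and MCM4 among them, fell with ras in vector cells and were not called in shRB cells. Of 28 such genes, 22 were tested; in shRB cells 1 rose, 8 fell and 13 were not called, where 12.4% and 20.4% of all genes tested rose and fell. The median change was -0.46. In vector cells 0 rose, 11 fell and 11 were not called (9.21% and 16.2% of all genes), with a median of -1.09. The difference of the 2 responses, shRB minus vector, was called positive for 5 of 22 and negative for 0, against 1.34% and 0.646% of all genes. MCM6 read 10.38 and 10.99 on the growing and 10.64 and 10.31 on the senescent shRB arrays, with overlapping groups. With vector, MCM6 read 9.53 and 9.62 growing and 6.52 and 6.67 senescent, with no overlap. Its change was -0.21 ± 0.26 (adjusted p = 0.57) with shRB and -2.98 ± 0.26 (adjusted p = 2.76e-08) with vector. The MCM6 responses differed by 2.77 ± 0.37 (adjusted p = 0.000117), and the call held under all 16 alternatives. MCM4, another helicase subunit, read 9.45 and 9.48 on the growing and 9.81 and 9.61 on the senescent shRB arrays. With vector, MCM4 read 8.71 and 8.80 growing and 6.63 and 6.88 senescent. The MCM4 responses differed by 2.25 ± 0.33 (adjusted p = 0.000483). The MCM4 difference was not called with the mean of all probe sets (adjusted p = 0.135). CDC7 encodes the kinase that fires loaded origins, and it was the only 1 of the 22 to rise. It read 5.41 and 4.92 on the growing and 7.39 and 6.98 on the senescent shRB arrays, with no overlap. With vector, CDC7 read 3.97 and 4.06 growing and 3.87 and 3.39 senescent, all under 5 and not far above background, where a fall could hardly be seen. CDC7 rose by 2.02 ± 0.24 (adjusted p = 9.72e-07) in shRB cells and changed by -0.39 ± 0.24 (adjusted p = 0.258) in vector cells, and the difference was 2.41 ± 0.34 (adjusted p = 0.000229). The differences of MCM5 (2.45 ± 0.60, adjusted p = 0.0344) and MCM7 (1.88 ± 0.45, adjusted p = 0.0291) were less stable. MCM5 lost its call without any 1 of the 8 arrays other than growing vector replicate 1 and senescent shRB replicate 2 or with no filter on low values, arrays set to one median, the mean of all probe sets or a fit of the compared arrays alone (adjusted p 0.0527 to 0.184). MCM7 lost its call without growing shRB replicate 2, senescent shRB replicate 2, growing vector replicate 1 or senescent vector replicate 1 or with no filter on low values or a fit of the compared arrays alone (adjusted p 0.0509 to 0.18), and with the mean of all probe sets MCM7 was called lower in shRB cells, -0.74 (adjusted p = 0.0388). MCM6, MCM4 and MCM5 had differences from vector of 1.53, 0.80 and 1.43 with the mean of all probe sets.

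Other members of the list fell in both shRB and vector cells. The GINS subunits, which complete the helicase, read 8.09 and 8.78 on the growing and 6.34 and 5.32 on the senescent shRB arrays for GINS1 and 8.54 and 9.01 on the growing and 6.89 and 6.14 on the senescent shRB arrays for GINS2. GINS1 fell by 2.60 ± 0.49 (adjusted p = 0.000309) in shRB and by 2.72 ± 0.49 (adjusted p = 0.000287) in vector cells, and GINS2 by 2.26 ± 0.38 (adjusted p = 9.01e-05) and 2.73 ± 0.38 (adjusted p = 1.48e-05). Neither difference was called (GINS1 0.12 ± 0.70, adjusted p = 0.98, GINS2 0.48 ± 0.54, adjusted p = 0.85). CDC6, which loads the helicase, fell by 1.57 ± 0.50 (adjusted p = 0.0203) in shRB cells, a call lost without growing shRB replicate 1 or 2 or senescent shRB replicate 2 (adjusted p 0.068 to 0.18). The GINS genes started higher in growing shRB than in growing vector cells (1.33 ± 0.49, adjusted p = 0.534 for GINS1 and 1.74 ± 0.38, adjusted p = 0.0594 for GINS2, neither called). GINS2 had an shRB change of -0.69 with the mean of all probe sets.

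The same held for part of the DNA synthesis machinery and for the enzyme that makes thymidylate. Of 25 genes for polymerases, clamp, clamp loader and fork factors, 1 rose, 8 fell and 16 were not called in shRB cells. The median was -0.33, and 12.4% and 20.4% of all genes rose and fell. In vector cells 0 rose, 13 fell and 12 were not called (median -0.77); the difference was called positive for 3, RFC4, TIPIN and FEN1, and negative for 0. RFC4, a clamp loader subunit, read 9.40 and 9.90 on the growing and 9.75 and 9.94 on the senescent shRB arrays, with overlapping groups. With vector, RFC4 read 8.81 and 8.83 growing and 5.39 and 6.19 senescent. It changed by 0.20 ± 0.39 (adjusted p = 0.743) with shRB and -3.03 ± 0.39 (adjusted p = 6.82e-06) with vector. The RFC4 responses differed by 3.23 ± 0.56 (adjusted p = 0.00225). TIPIN, which stabilises stalled forks, was the only 1 of the list to rise. It read 6.10 and 7.52 on the growing and 8.76 and 8.51 on the senescent shRB arrays and rose by 1.83 ± 0.39 (adjusted p = 0.000927), a call that reached adjusted p = 0.0501 without growing shRB replicate 1, where its value was lowest. Its difference of 2.60 ± 0.55 (adjusted p = 0.0122) was not called without growing shRB replicate 1 or senescent shRB replicate 1 or with a fit of the compared arrays alone (adjusted p 0.0517 to 0.0958). FEN1, the flap endonuclease of Okazaki fragment maturation, had a difference of 2.22 ± 0.51 (adjusted p = 0.0214). The FEN1 difference was not called without any 1 of the 8 arrays other than senescent vector replicate 2 and senescent shRB replicate 2 or with the mean of all probe sets (adjusted p 0.0625 to 0.19). TOP2A, the topoisomerase that works in late S phase and mitosis, fell in both, by 5.46 ± 0.64 (adjusted p = 1e-06) with shRB and 4.71 ± 0.64 (adjusted p = 1.22e-05) with vector, and RFC3, a partner of RFC4 in the clamp loader, fell by 2.21 ± 0.31 (adjusted p = 1.05e-05) and 2.22 ± 0.31 (adjusted p = 1.61e-05). TOP2A and RFC3 had shRB changes of -3.42 and -1.11 with the mean of all probe sets. TIPIN had an shRB change of 1.12 without growing shRB replicate 1. FEN1 had a difference from vector of 1.44 with the mean of all probe sets.

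Of 18 genes of deoxynucleotide synthesis tested, in shRB cells 2 rose, 3 fell and 13 were not called, the median being -0.17, where 12.4% and 20.4% of all genes rose and fell. In vector cells 1 rose, 10 fell and 7 were not called (median -0.93), with 4 differences called positive, beside 1.34% of all genes, and 0 negative. Taken gene by gene, the difference of responses had a median of 0.32. TYMS read 11.65 and 11.57 on the growing and 11.47 and 11.25 on the senescent shRB arrays. With vector, TYMS read 10.87 and 11.08 growing and 6.72 and 7.39 senescent. The lowest of the 4 shRB arrays was above the highest vector array. Its change was -0.24 ± 0.32 (adjusted p = 0.605) in shRB cells and -3.93 ± 0.32 (adjusted p = 1.37e-08) in vector cells, 15.2-fold lower, and the difference was 3.68 ± 0.46 (adjusted p = 4.99e-05). RRM1, the large subunit of ribonucleotide reductase, read 11.23 and 11.34 on the growing and 11.19 and 10.90 on the senescent shRB arrays and fell in vector cells by 1.91; its difference of 1.67 ± 0.32 (adjusted p = 0.00497) was not called with the mean of all probe sets (adjusted p = 0.463). With the mean of all probe sets RRM1 was called lower in shRB cells too, -0.96 (adjusted p = 0.0214). RRM2, the small subunit, fell in both, by 2.21 ± 0.54 (adjusted p = 0.00334) in shRB cells (not called without senescent shRB replicate 2, adjusted p = 0.0732) and 2.90 ± 0.54 (adjusted p = 0.000396) in vector cells. TK1, the thymidine salvage kinase, also fell in both, by 3.13 ± 0.39 (adjusted p = 1.92e-06) and 3.55 ± 0.39 (adjusted p = 6.75e-07), and CAD was the third gene to fall with shRB. MTHFD1, a folate enzyme, had a difference of 1.75 ± 0.39 (adjusted p = 0.018). The MTHFD1 difference was not called without any 1 of the 8 arrays other than senescent vector replicate 2, growing vector replicate 1 and senescent shRB replicate 2 (adjusted p 0.0642 to 0.0899). SAMHD1, which degrades deoxynucleotides, rose in shRB cells by 0.86 ± 0.25 (adjusted p = 0.011) and fell in vector cells by 0.96 ± 0.25 (adjusted p = 0.00652), but the rise was not called without growing shRB replicate 1 or senescent shRB replicate 2 or with the mean of all probe sets (adjusted p 0.0697 to 0.151) and the difference of 1.82 ± 0.35 (adjusted p = 0.00638) not without growing vector replicate 1 or with the mean of all probe sets (adjusted p 0.0594 to 0.12). RRM2B, the subunit induced by p53, rose in both, by 1.25 and 1.20. SAMHD1 had an shRB change of 0.29 with the mean of all probe sets. TYMS, RRM1, MTHFD1 and SAMHD1 had differences from vector of 2.25, 0.84, 1.10 and 0.71 with the mean of all probe sets.

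Both cyclin E genes rose with ras in shRB cells, and both differed from their vector response. Of 18 E2F family, G1/S cyclin and kinase genes, in shRB cells 4 rose, 5 fell and 9 were not called (median -0.36). The shares of all genes that rose and fell were 12.4% and 20.4%. In vector cells 3 of the 18 rose, 8 fell and 7 were not called (median -0.54). For 2 of them, CCNE1 and CCNE2, the difference was called, both positive, beside 1.34% of all genes. CCNE1, a partner of CDK2, read 4.78 and 5.24 on the growing and 7.09 and 6.51 on the senescent shRB arrays. With vector, CCNE1 read 4.38 and 4.24 growing and 3.80 and 4.20 senescent, so that the groups of shRB arrays did not overlap and those of vector arrays lay close. All these vector values lay under 5 and not far above background, where a fall could hardly be seen. It rose by 1.79 ± 0.25 (adjusted p = 9.78e-06), against -0.31 ± 0.25 (adjusted p = 0.4) in vector cells. The CCNE1 responses differed by 2.10 ± 0.35 (adjusted p = 0.00176). CCNE2, the second cyclin E, read 6.48 and 7.51 on the growing and 9.55 and 8.56 on the senescent shRB arrays. With vector, CCNE2 read 4.96 and 4.72 growing and 3.87 and 4.05 senescent, so that all 4 shRB arrays lay above all 4 vector arrays. It rose by 2.06 ± 0.42 (adjusted p = 0.000643), with a difference of 2.95 ± 0.59 (adjusted p = 0.00873). The CCNE2 difference was not called without growing shRB replicate 1 or senescent shRB replicate 1 or with a fit of the compared arrays alone (adjusted p 0.0505 to 0.073). E2F7, a repressor that p53 and E2F both induce, rose in both, by 4.03 ± 0.35 (adjusted p = 1.07e-08) and 4.37 ± 0.35 (adjusted p = 7.53e-09), a difference of -0.35 with a 95% interval of -1.37 to 0.67. SKP2, which directs degradation of p27, and FBXO5, an inhibitor of the anaphase-promoting complex, fell in shRB cells by 2.02 ± 0.44 (adjusted p = 0.00122) and 3.35 ± 0.43 (adjusted p = 3.17e-06), and in vector cells by 3.59 and 3.79. E2F7 and SKP2 had shRB changes of 1.99 and -1.06 with the mean of all probe sets.

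Homologous recombination and Fanconi anaemia genes were called in shRB cells near the shares of all genes, 12.4% higher and 20.4% lower. Of 12 tested of 31 listed, 1 rose, 3 fell and 8 were not called. In vector cells 0 rose, 7 fell and 5 were not called, and the medians were -0.64 and -1.42. Without senescent shRB replicate 2 the median in shRB cells was -0.01. FANCL, the ubiquitin ligase of the Fanconi core complex, read 8.62 and 8.71 on the growing and 10.38 and 9.74 on the senescent shRB arrays. With vector, FANCL read 7.85 and 7.62 growing and 6.04 and 6.39 senescent. The shRB groups did not overlap, nor did the vector groups, and they moved in opposite directions, by 1.40 ± 0.36 (adjusted p = 0.00446) and -1.52 ± 0.36 (adjusted p = 0.00312). The difference of 2.92 ± 0.50 (adjusted p = 0.00225) held under all 16 alternatives, while the rise in shRB cells was not called without senescent shRB replicate 1 (adjusted p = 0.0696). FANCI, its substrate, had a difference of 2.29 ± 0.59 (adjusted p = 0.0471). The FANCI difference was not called without any 1 of the 8 arrays other than senescent shRB replicate 2 or with no filter on low values, arrays set to one median, the mean of all probe sets or a fit of the compared arrays alone (adjusted p 0.0642 to 0.232). MSH6, a mismatch repair subunit, had a difference of 1.63 ± 0.42 (adjusted p = 0.0477). The MSH6 difference was not called without any 1 of the 8 arrays other than senescent vector replicate 2 or with no filter on low values, arrays set to one median, the mean of all probe sets or a fit of the compared arrays alone (adjusted p 0.0606 to 0.488). Among the members that fell with shRB were BRIP1, a DNA helicase gene, and BARD1, a ubiquitin ligase subunit gene. FANCI and MSH6 had differences from vector of 1.05 and 0.37 with the mean of all probe sets. MSH6 had a difference from vector of 1.04 without senescent vector replicate 1.

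LMNB1, HELLS, EZH2 and CBX5 fell in vector cells and were not called in shRB cells, and no difference of responses among the senescence chromatin genes was called in the fit of the 32 arrays. Of 29 tested, in shRB cells 1 rose, 10 fell and 18 were not called (median -0.21), beside 12.4% and 20.4% of all genes. In vector cells 2 rose, 15 fell and 12 were not called (median -0.60), and 0 differences were called. LMNB1, whose loss is used to mark senescence, read 7.89 and 7.54 on the growing and 7.15 and 6.57 on the senescent shRB arrays. With vector, LMNB1 read 7.50 and 7.55 growing and 4.18 and 4.33 senescent. The shRB groups were separate but close, with a change of -0.86 ± 0.49 (adjusted p = 0.19), and the vector groups lay far apart, with a fall of 3.27 ± 0.49 (adjusted p = 3.28e-05). The difference, 2.41 ± 0.69 (adjusted p = 0.0808), missed the threshold, and was called with a fit of the compared arrays alone (adjusted p = 0.0182) and with the replicate number as a block (adjusted p = 0.0246). HELLS, a remodeller needed for DNA methylation, EZH2, the Polycomb methyltransferase, and CBX5, a heterochromatin protein, fell in vector cells by 2.43, 2.20 and 3.60 and changed in shRB cells by 0.38 ± 0.53 (adjusted p = 0.624), 0.27 ± 0.55 (adjusted p = 0.75) and -0.21 ± 0.67 (adjusted p = 0.842). The senescent shRB arrays differed from each other for these 3, reading 9.14 and 7.86, 7.82 and 5.84 and 9.39 and 7.39, and no difference of responses was called (adjusted p = 0.0555, 0.132 and 0.0745). Without senescent shRB replicate 2 all 3 differences were called, 3.45 (adjusted p = 0.0223) for HELLS, 3.46 (adjusted p = 0.0154) for EZH2 and 4.38 (adjusted p = 0.0175) for CBX5. HELLS was also called with quantile normalization, an intensity trend and the replicate block (adjusted p = 0.0254, 0.0448 and 0.0493), and CBX5 with the mean of all probe sets, 1.54 (adjusted p = 0.0136). HMGB2, a chromatin protein lost at senescence entry, fell in both, by 2.79 ± 0.55 (adjusted p = 0.00051) and 3.44 ± 0.55 (adjusted p = 8.4e-05), as did LBR, the lamin B receptor, by 2.26 ± 0.37 (adjusted p = 6.26e-05) and 1.70 ± 0.37 (adjusted p = 0.00162). H2BC21, a histone gene whose transcripts are polyadenylated in arrested cells, was the only 1 of the list to rise with shRB, by 2.63 ± 0.45 (adjusted p = 0.000116). HMGB2 had an shRB change of -1.43 with the mean of all probe sets.

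Mitotic genes fell with ras in both shRB and vector cells. Of 61 tested of 74 listed, 0 rose, 57 fell and 4 were not called in shRB cells, a median change of -2.84 against -0.13 over all genes, and in vector cells 0 rose, 49 fell and 12 were not called, and the median was -2.22. The median shRB minus vector value of the list was 0.78 in growing cells (2 called higher and 0 lower) and -0.12 in senescent cells. PRC1 read 10.17 and 10.31 on the growing and 3.99 and 3.96 on the senescent shRB arrays. With vector, PRC1 read 9.25 and 10.08 growing and 4.07 and 4.11 senescent, so that senescent arrays of both kinds lay within 3.96 to 4.11. It fell by 6.26 ± 0.69 (adjusted p = 4.19e-07) with shRB and 5.57 ± 0.69 (adjusted p = 3.72e-06) with vector. CDC20 read 9.61 and 8.89 on the growing and 3.44 and 3.57 on the senescent shRB arrays. CDC20 fell by 5.74 ± 0.48 (adjusted p = 6.31e-09), and fell by 4.01 in vector cells. ANLN, a scaffold of the cytokinetic ring, read 11.62 and 11.95 on the growing and 5.36 and 5.69 on the senescent shRB arrays and fell by 6.26 ± 0.56 (adjusted p = 2.08e-08). CEP55, which acts at abscission, fell by 5.78 ± 0.66 (adjusted p = 6.13e-07), and ASPM, a spindle pole protein, by 5.72 ± 0.56 (adjusted p = 6.58e-08). None of these 5 differed from the vector response past the threshold, with differences of -0.68, -1.73, -2.00, -1.26 and -1.26. The senescent PRC1 values of both kinds and those of CDC20 with shRB lay not far above background. A larger fall of these genes could hardly be seen. ASPM had an shRB change of -2.12 with the mean of all probe sets.

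Of the 61 mitosis genes, 3 had a negative difference of responses and 1 a positive one, against 0.646% and 1.34% of all genes. CKS2, a subunit of CDK complexes, read 11.01 and 11.43 on the growing and 8.84 and 8.77 on the senescent shRB arrays. With vector, CKS2 read 10.79 and 10.98 growing and 10.38 and 10.83 senescent. It fell in shRB cells by 2.42 ± 0.23 (adjusted p = 5.76e-08) with no overlap, while in vector cells the change was -0.28 ± 0.23 (adjusted p = 0.423). The CKS2 responses differed by -2.14 ± 0.33 (adjusted p = 0.000701), and the call held under all 16 alternatives. KIF4A, a chromosome kinesin, and CDCA8, of the chromosomal passenger complex, had differences of -2.00 ± 0.50 (adjusted p = 0.0408) and -1.44 ± 0.36 (adjusted p = 0.0408). KIF4A lost its call without any 1 of the 8 arrays other than growing vector replicate 1 and growing shRB replicate 1 or with no filter on low values or a fit of the compared arrays alone (adjusted p 0.073 to 0.293). CDCA8 lost its call without any 1 of the 8 arrays other than senescent shRB replicate 1 or with no filter on low values or a fit of the compared arrays alone (adjusted p 0.0504 to 0.203). In growing cells both read higher with shRB than with vector, by 1.64 ± 0.36 (adjusted p = 0.0594) and 1.11 ± 0.26 (adjusted p = 0.0644), neither called, and in senescent cells all 8 values of the 2 genes in shRB and vector cells lay between 3.58 and 4.35. Those senescent values were not far above background, where a further fall could hardly be seen. CENPK, a kinetochore gene, went the other way. It read 8.42 and 10.02 on the growing and 9.26 and 8.79 on the senescent shRB arrays, with overlapping groups. With vector, CENPK read 8.44 and 8.33 growing and 4.47 and 4.82 senescent. The CENPK responses differed by 3.55 ± 0.70 (adjusted p = 0.0079). The CENPK difference was not called without growing shRB replicate 1 (adjusted p = 0.0686). Of 6 MuvB, MYB and FOXM1 genes tested, MYBL1, which encodes A-MYB, and FOXM1 fell with shRB, by 5.58 ± 1.13 (adjusted p = 0.000618) and 2.54 ± 0.30 (adjusted p = 9.18e-07), and the other 4 were not called. MYBL1 had an shRB change of -1.81 with the mean of all probe sets.

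**Figure D2:**
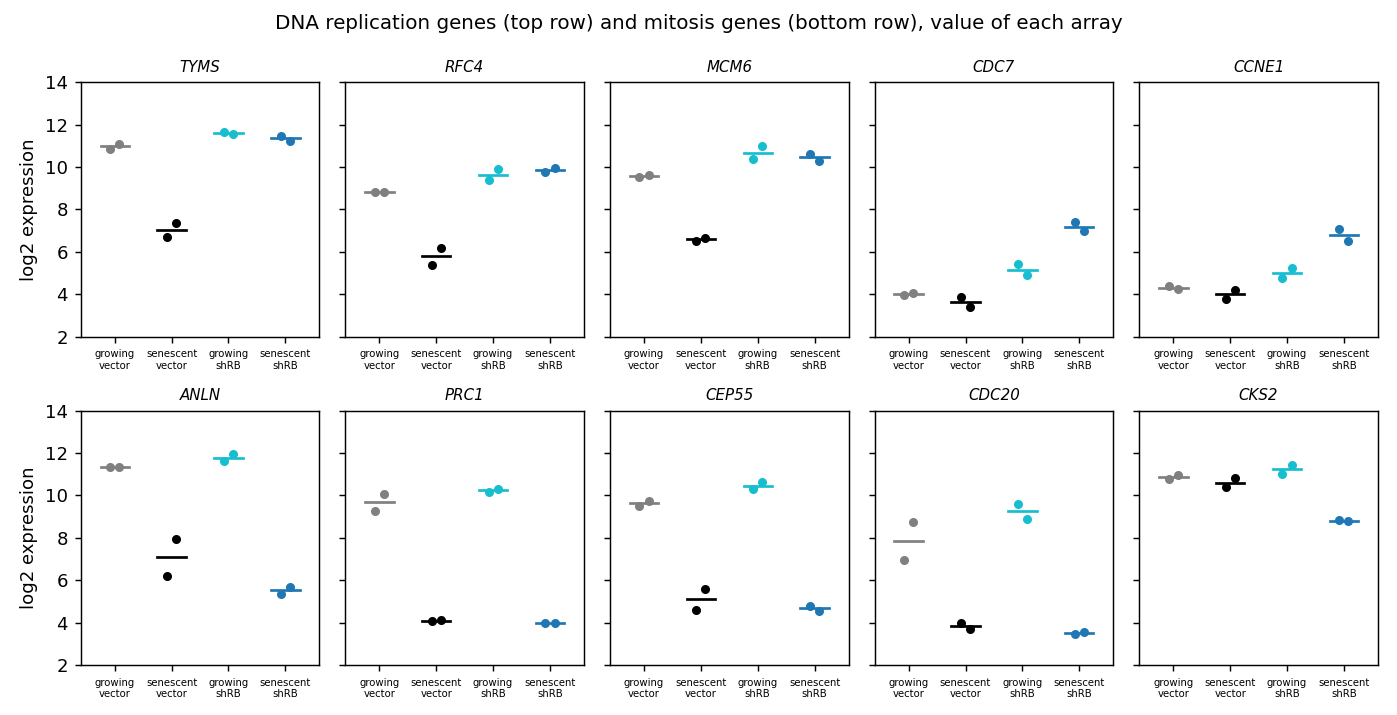
Each dot is the log2 value of 1 array and each bar the mean of 2, for growing and senescent vector and shRB cells, with replication and cyclin E genes in the top row and mitosis genes in the bottom row. In the top row the senescent shRB values lie near or above the growing ones while TYMS, RFC4 and MCM6 drop in senescent vector cells, and in the bottom row ANLN, PRC1, CEP55 and CDC20 drop in both and CKS2 only in shRB cells.

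The CDK inhibitor genes CDKN2B, CDKN1A and CDKN2A rose with ras in both shRB and vector cells, and no difference of responses was called. Of the other 3 tested, CDKN3 and CDKN1B fell in both, and CDKN1C was not called in either (shRB change -0.20 ± 0.32, adjusted p = 0.678). CDKN2B, which encodes p15, read 2.89 and 3.08 on the growing and 10.48 and 10.08 on the senescent shRB arrays. CDKN2B rose by 7.29 ± 0.70 (adjusted p = 5.73e-08) from background, against 7.95 ± 0.70 (adjusted p = 3.32e-08) in vector cells. CDKN1A, which encodes p21, read 10.55 and 9.94 on the growing and 12.20 and 11.56 on the senescent shRB arrays. CDKN1A rose by 1.63 ± 0.24 (adjusted p = 1.64e-05), against 1.58 ± 0.24 (adjusted p = 3.7e-05). CDKN2A, which encodes p16 and ARF from shared exons, read 8.38 and 8.43 on the growing and 9.67 and 9.56 on the senescent shRB arrays. CDKN2A rose by 1.22 ± 0.23 (adjusted p = 0.000292), against 1.13 ± 0.23 (adjusted p = 0.00083). For all 3 the growing and senescent shRB arrays did not overlap, and the differences of responses had 95% intervals of -2.72 to 1.40, -0.65 to 0.75 and -0.59 to 0.76. CDKN1B, which encodes p27, fell by 2.69 ± 0.43 (adjusted p = 4.88e-05), with senescent values of 7.90 and 5.88, and CDKN3, a mitotic phosphatase gene, fell by 4.61 ± 0.41 (adjusted p = 1.76e-08). Of 26 other p53 targets tested, in shRB cells 9 rose, 0 fell and 17 were not called, beside 12.4% and 20.4% of all genes. In vector cells 7 rose, 1 fell and 18 were not called, with 0 differences called. GDF15, a stress cytokine, read 7.49 and 7.13 on the growing and 12.44 and 12.52 on the senescent shRB arrays. GDF15 rose by 5.17 ± 0.32 (adjusted p = 8.59e-11), and SPATA18, a mitochondrial quality control gene, rose by 2.63 ± 0.51 (adjusted p = 0.000403). CDKN2B, GDF15 and SPATA18 had shRB changes of 3.75, 2.00 and 1.15 with the mean of all probe sets. CDKN1B had an shRB change of -1.68 without senescent shRB replicate 2.

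Cytokine and chemokine genes were among the largest rises in shRB cells. Of 24 secreted inflammatory factors tested of 33 listed, in shRB cells 16 rose, 3 fell and 5 were not called. The median change was 6.37. A member at background in growing cells was tested only if arrays of other groups passed log2 5. The share that rose and the medians therefore describe the members that passed, and are no separate support for a rise of the list. In vector cells 11 rose, 4 fell and 9 were not called, and the median was 1.51. Taken gene by gene, the difference of responses had a median of 1.92. The shRB minus vector values had a median of 0.79 in senescent and -0.43 in growing cells. CXCL3 and CXCL5, chemokines that draw neutrophils through CXCR2, read 3.16 and 3.40 on the growing and 12.70 and 12.82 on the senescent shRB arrays for CXCL3 and 3.51 and 2.94 on the growing and 12.69 and 12.64 on the senescent shRB arrays for CXCL5. The growing values were at background and the senescent values among the highest on the arrays, with rises of 9.48 ± 0.38 (adjusted p = 6.67e-14) and 9.45 ± 0.29 (adjusted p = 4.9e-16). CXCL1 rose by 9.20 ± 0.79 (adjusted p = 1.07e-08) and CXCL2 by 9.18 ± 0.68 (adjusted p = 1.35e-09). CXCL1, CXCL2 and CXCL3 are near copies of each other, and whether their probe sets read 1 gene each was not tested. TNFSF15, a TNF-family cytokine, read 3.13 and 2.58 on the growing and 12.14 and 11.99 on the senescent shRB arrays. TNFSF15 rose by 9.21 ± 0.61 (adjusted p = 2.33e-10), against 8.64 in vector cells. IL1A and IL1B, the interleukin 1 genes that start the secretory cascade, rose by 8.09 ± 0.97 (adjusted p = 1.26e-06) and 8.31 ± 0.78 (adjusted p = 4.2e-08), and CCL20, a chemokine for CCR6, by 8.29 ± 1.01 (adjusted p = 1.57e-06). IL6, given here because it is the usual marker of this secretion and chosen after its values were seen, rose by 6.50 ± 0.83 (adjusted p = 3.03e-06), against 2.30 ± 0.83 in vector cells, and the difference missed the threshold (adjusted p = 0.0743) but was called without growing vector replicate 2, at 5.80 (adjusted p = 0.0063). The 3 genes of the list that fell with shRB were TNFSF4, CXCL12 and IL15. CXCL2 and IL1A had shRB changes of 3.11 and 4.07 with the mean of all probe sets.

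For 4 of the 24, IL33, CXCL8, CXCL6 and IL11, the rise with shRB was larger than in vector cells by the test of the difference, and 0 were smaller. CXCL6 read 3.89 and 3.46 on the growing and 11.68 and 11.89 on the senescent shRB arrays. With vector, CXCL6 read 4.85 and 4.18 growing and 9.57 and 9.17 senescent. The senescent shRB arrays lay above the senescent vector arrays, by 2.41 ± 0.41 (adjusted p = 0.000471), and the difference of responses, 3.25 ± 0.58 (adjusted p = 0.00317), held under all 16 alternatives. IL33, an alarmin of the interleukin 1 family, read 2.91 and 2.88 on the growing and 10.06 and 8.22 on the senescent shRB arrays. With vector, IL33 read 3.37 and 3.26 growing and 5.06 and 3.65 senescent. The IL33 responses differed by 5.21 ± 1.03 (adjusted p = 0.00789). The IL33 difference was not called without senescent shRB replicate 1 or senescent vector replicate 2 (adjusted p 0.0545 to 0.0609). For CXCL8 and IL11 the growing shRB arrays read below the growing vector arrays. CXCL8, which encodes interleukin 8, read 6.45 and 6.23 on the growing and 12.98 and 12.98 on the senescent shRB arrays. With vector, CXCL8 read 11.51 and 8.92 growing and 12.82 and 12.71 senescent. Growing shRB cells were lower than growing vector cells by 3.87 ± 0.66 (adjusted p = 0.0151), whose own arrays differed from each other by more than 2 log2 units, and senescent cells differed by 0.22 ± 0.66 (adjusted p = 0.905). Its difference of 4.09 ± 0.93 (adjusted p = 0.0214) was not called without any 1 of the 8 arrays other than growing vector replicate 2 or with the mean of all probe sets or a fit of the compared arrays alone (adjusted p 0.0539 to 0.182). IL11, of the interleukin 6 family, read 8.45 and 8.34 on the growing and 12.64 and 12.49 on the senescent shRB arrays. With vector, IL11 read 11.08 and 9.77 growing and 11.86 and 11.27 senescent. The IL11 responses differed by 3.04 ± 0.70 (adjusted p = 0.0232). The IL11 difference was not called without any 1 of the 8 arrays other than senescent vector replicate 1 and growing vector replicate 2 (adjusted p 0.0524 to 0.188). CXCL1 showed the same pattern as CXCL8 without a call, at 8.41 and 4.64 on the growing vector arrays and a difference of 4.01 ± 1.12 (adjusted p = 0.0745).

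In shRB cells about as many receptors of this signalling and feedback genes of NF-kB rose as did not. Of 27 tested, 14 rose, 1 fell and 12 were not called in shRB cells, where 12.4% and 20.4% of all genes rose and fell. Their median was 0.78, and 1.18 among those above log2 6 on 2 arrays. In vector cells 8 rose, 3 fell and 16 were not called (median 0.49). IL13RA2, a decoy receptor for interleukin 13, read 2.82 and 3.55 on the growing and 10.65 and 10.50 on the senescent shRB arrays. IL13RA2 rose by 7.39 ± 0.54 (adjusted p = 9.1e-10). ICAM1, an adhesion receptor for leukocytes, rose by 4.78 ± 0.47 (adjusted p = 8.06e-08), and TNFAIP3, which encodes the inhibitor A20, by 3.45 ± 0.45 (adjusted p = 3.64e-06). NFKBIZ, an atypical IkB, was the only 1 whose difference was called, 2.01 ± 0.50 (adjusted p = 0.0394). It read 9.03 and 9.03 on the growing and 11.45 and 11.61 on the senescent shRB arrays. With vector, NFKBIZ read 11.06 and 10.22 growing and 11.27 and 10.99 senescent, with overlapping vector groups, and the call was lost without any 1 of the 8 arrays other than growing vector replicate 2 or with no filter on low values or a fit of the compared arrays alone (adjusted p 0.0538 to 0.258).

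Of 31 matrix metalloproteinase, plasminogen system and IGF binding protein genes, 16 rose, 6 fell and 9 were not called in shRB cells, a median of 0.76. In vector cells 11 rose, 6 fell and 14 were not called (median 0.37), with MMP3 and CTSS called positive in the difference. MMP3, stromelysin 1, read 4.14 and 3.69 on the growing and 13.08 and 13.20 on the senescent shRB arrays. With vector, MMP3 read 8.54 and 6.76 growing and 12.88 and 12.81 senescent. It rose by 9.23 ± 0.64 (adjusted p = 4.61e-10), and senescent shRB and vector cells differed by 0.30 ± 0.64 (adjusted p = 0.859), growing ones by -3.73 ± 0.64 (adjusted p = 0.0151). Its difference of 4.03 ± 0.91 (adjusted p = 0.0194) was not called without any 1 of the 8 arrays other than growing vector replicate 2 and growing shRB replicate 1 (adjusted p 0.0516 to 0.171). MMP10, stromelysin 2, rose by 8.64 ± 0.65 (adjusted p = 1.56e-09), and MMP12, the macrophage elastase, read 3.48 and 3.25 on the growing and 9.15 and 6.12 on the senescent shRB arrays. MMP12 rose by 4.27 ± 0.82 (adjusted p = 0.000351) with senescent arrays far apart. CTSS, a lysosomal cysteine protease, read 4.01 and 3.71 on the growing and 9.31 and 8.15 on the senescent shRB arrays. With vector, CTSS read 3.80 and 3.59 growing and 6.91 and 5.54 senescent. The CTSS responses differed by 2.34 ± 0.60 (adjusted p = 0.0416). The CTSS difference was not called without any 1 of the 8 arrays other than senescent vector replicate 1 and senescent shRB replicate 2 or with no filter on low values, arrays set to one median or a fit of the compared arrays alone (adjusted p 0.0579 to 0.286). Of 26 growth factor ligands and receptors, in shRB cells 7 rose, 10 fell and 9 were not called, beside 12.4% and 20.4% of all genes. In vector cells 7 rose, 10 fell and 9 were not called. ESM1, a proteoglycan induced by growth factors in endothelium, read 3.46 and 3.40 on the growing and 11.79 and 11.20 on the senescent shRB arrays. With vector, ESM1 read 3.33 and 3.42 growing and 8.14 and 7.66 senescent. The senescent shRB values lay above all others, and the rise of 8.07 ± 0.24 (adjusted p = 4.9e-16) exceeded that in vector cells by 3.54 ± 0.34 (adjusted p = 3.44e-06) under all 16 alternatives. EREG and NRG1, ligands of the EGF receptor family, rose by 7.50 ± 0.24 (adjusted p = 1.17e-15) and 5.86 ± 0.62 (adjusted p = 2.31e-07). FGF5 and BDNF fell further with shRB. FGF5 read 8.59 and 8.38 on the growing and 4.42 and 4.15 on the senescent shRB arrays. With vector, FGF5 read 8.01 and 8.24 growing and 6.50 and 6.68 senescent. The FGF5 responses differed by -2.67 ± 0.50 (adjusted p = 0.00449) under all 16 alternatives, and BDNF, a neurotrophin, had a difference of -1.55 ± 0.31 (adjusted p = 0.00793). The BDNF difference was not called without senescent shRB replicate 1 or senescent vector replicate 1 or with a fit of the compared arrays alone (adjusted p 0.0516 to 0.0887). GAS6, the ligand of AXL, fell by 6.10 ± 0.39 (adjusted p = 1.21e-10), from 11.55 and 11.72 to 5.76 and 5.30. EREG and NRG1 had shRB changes of 3.90 and 2.97 with the mean of all probe sets. MMP12 had an shRB change of 2.76 without senescent shRB replicate 1.

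**Figure D3:**
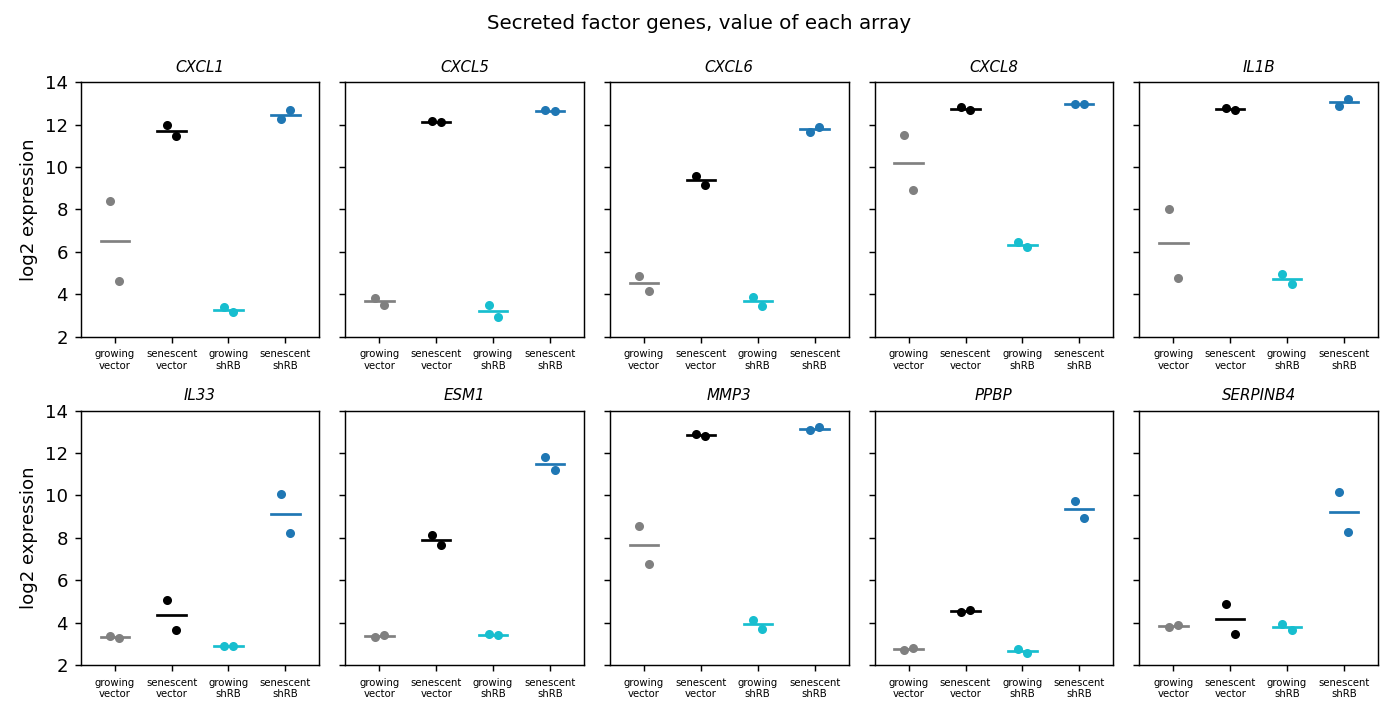
Log2 values of 10 genes of secreted proteins on each array, with bars at the mean of 2, for growing and senescent vector and shRB cells. CXCL6, IL33, ESM1, PPBP and SERPINB4 are higher in senescent shRB than in senescent vector cells, while CXCL1, CXCL8, IL1B and MMP3 lie between 11.46 and 13.23 in both senescent groups, near the highest array value of 13.88, and differ mostly in growing cells, where the 2 vector arrays are apart.

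Some feedback genes of the RAS and ERK pathway, the DUSP and SPRY genes among them, rose in both. Of 24 tested, 10 rose, 0 fell and 14 were not called in shRB cells, a median of 0.49. In vector cells 12 rose, 1 fell and 11 were not called (median 0.85), with 0 differences called. DUSP6, the phosphatase that acts on ERK, read 8.76 and 9.09 on the growing and 11.81 and 11.36 on the senescent shRB arrays. DUSP6 rose by 2.66 ± 0.27 (adjusted p = 1.23e-07). SPRY4 and SPRY2, inhibitors of receptor signalling to RAS, rose by 3.49 ± 0.51 (adjusted p = 1.84e-05) and 2.78 ± 0.43 (adjusted p = 3.08e-05), and DUSP5 and DUSP4 by 2.92 ± 0.46 (adjusted p = 4.5e-05) and 2.56 ± 0.37 (adjusted p = 1.37e-05). In vector cells these 5 rose by 2.04, 2.51, 2.92, 2.57 and 3.86. Of 24 immediate early genes, in shRB cells 9 rose, 8 fell and 7 were not called. In vector cells 8 rose, 5 fell and 11 were not called. EGR3 and BHLHE40 rose by 3.58 ± 0.29 (adjusted p = 5.38e-09) and 2.80 ± 0.40 (adjusted p = 1.26e-05), NR4A2 by 2.14 ± 0.41 (adjusted p = 0.000351), and the YAP and SRF targets CCN1 and CCN2 fell by 2.24 ± 0.26 (adjusted p = 7.16e-07) and 2.05 ± 0.22 (adjusted p = 3.41e-07). CCN2 had the only difference called, -1.43 ± 0.32 (adjusted p = 0.018). The CCN2 difference was not called without growing shRB replicate 2, senescent shRB replicate 1, growing vector replicate 2 or senescent vector replicate 2 or with a fit of the compared arrays alone (adjusted p 0.0667 to 0.119). FOSL1, an AP-1 subunit induced by ERK, fell by 2.10 ± 0.63 (adjusted p = 0.0135). The FOSL1 call was lost without growing shRB replicate 1 or senescent shRB replicate 2 (adjusted p 0.101 to 0.134). Of 27 TGF-beta and BMP genes, in shRB cells 4 rose, 9 fell and 14 were not called, beside 12.4% and 20.4% of all genes. In vector cells 3 rose, 10 fell and 14 were not called. BMP2 read 4.15 and 4.11 on the growing and 11.04 and 11.32 on the senescent shRB arrays. BMP2 rose by 7.05 ± 0.77 (adjusted p = 3.41e-07), and ID2, a BMP target, fell by 4.18 ± 0.50 (adjusted p = 1.41e-06). PMEPA1, a feedback inhibitor of TGF-beta, rose by 3.22 ± 0.25 (adjusted p = 3.29e-09) with a difference of 1.80 ± 0.36 (adjusted p = 0.00818). The PMEPA1 difference was not called without growing shRB replicate 2 or with the mean of all probe sets or a fit of the compared arrays alone (adjusted p 0.0697 to 0.0849). BHLHE40 had an shRB change of 1.29 with the mean of all probe sets. PMEPA1 had a difference from vector of 1.06 with the mean of all probe sets.

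Contractile genes and many matrix genes fell in both shRB and vector cells. Of 45 collagen and matrix genes, in shRB cells 6 rose, 21 fell and 18 were not called, beside 12.4% and 20.4% of all genes. The median was -0.65. In vector cells 2 rose, 18 fell and 25 were not called (median -0.39). COL15A1, a basement membrane collagen, read 10.61 and 9.60 on the growing and 3.20 and 4.06 on the senescent shRB arrays. COL15A1 fell by 6.48 ± 0.53 (adjusted p = 5.5e-09), against 6.52 in vector cells. FBLN1, a fibulin, fell by 4.17 ± 0.57 (adjusted p = 7.81e-06), and DCN, the proteoglycan decorin, by 3.22 ± 0.35 (adjusted p = 3.61e-07). COL10A1 went up in both and further with shRB, reading 3.52 and 3.53 on the growing and 9.66 and 8.84 on the senescent shRB arrays. Its difference of 1.63 ± 0.40 (adjusted p = 0.0377) was not called without any 1 of the 8 arrays other than senescent shRB replicate 2 or with no filter on low values, arrays set to one median or a fit of the compared arrays alone (adjusted p 0.0539 to 0.193). LUM, which encodes lumican, and LOX, which cross-links collagen, had negative differences of -2.60 ± 0.54 (adjusted p = 0.0119) and -1.26 ± 0.30 (adjusted p = 0.0294). LUM lost its call without growing shRB replicate 2, senescent shRB replicate 1 or senescent vector replicate 2 or with the mean of all probe sets or a fit of the compared arrays alone (adjusted p 0.0628 to 0.147). LOX lost its call without any 1 of the 8 arrays other than senescent shRB replicate 1 or with the mean of all probe sets or a fit of the compared arrays alone (adjusted p 0.0548 to 0.138). Of 24 contractile and myofibroblast genes, in shRB cells 0 rose, 19 fell and 5 were not called, the median being -1.08. In vector cells 0 rose, 17 fell and 7 were not called (median -1.04). CNN1, a smooth muscle calponin, read 8.30 and 7.69 on the growing and 3.60 and 3.45 on the senescent shRB arrays. CNN1 fell by 4.47 ± 0.30 (adjusted p = 2.4e-10), and LMOD1 and TAGLN fell by 3.69 ± 0.29 (adjusted p = 3.61e-09) and 2.59 ± 0.27 (adjusted p = 2.35e-07). MYH10, a nonmuscle myosin heavy chain, was the only 1 whose difference was called. It read 11.05 and 11.04 on the growing and 9.60 and 9.82 on the senescent shRB arrays. With vector, MYH10 read 11.07 and 10.68 growing and 7.05 and 7.45 senescent, a smaller fall with shRB by 2.29 ± 0.37 (adjusted p = 0.00106). The MYH10 difference was not called with the mean of all probe sets (adjusted p = 0.116). FBLN1 and LMOD1 had shRB changes of -2.28 and -2.23 with the mean of all probe sets. LUM and MYH10 had differences from vector of -1.57 and 1.11 with the mean of all probe sets.

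**Figure D4:**
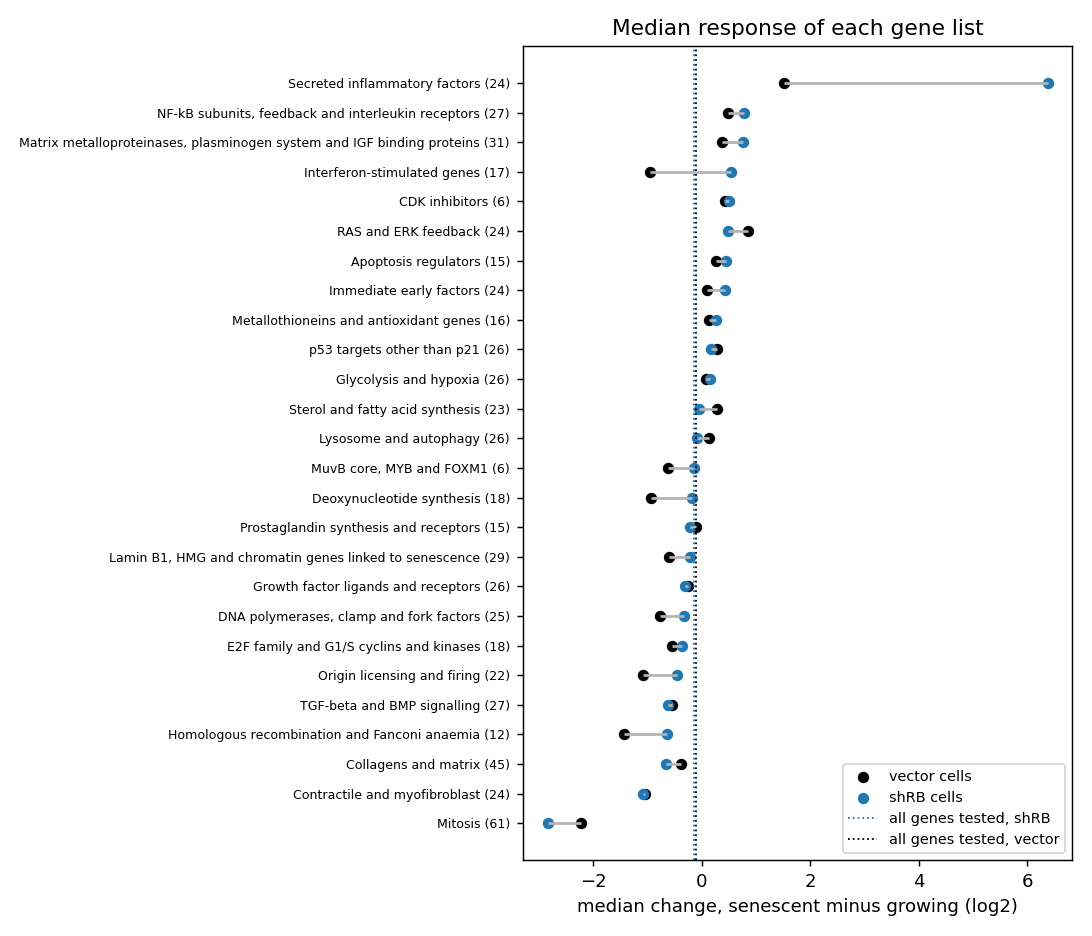
Median log2 change from growing to senescent of each gene list in vector cells (black) and shRB cells (blue), with the number of genes tested in brackets and dotted lines at the medians of all 8511 genes (-0.10 and -0.13). Secreted inflammatory factors lie at 1.51 and 6.37, mitosis at -2.22 and -2.84, and deoxynucleotide synthesis at -0.93 and -0.17. The gap between 2 dots is not the median difference of the genes. Taken gene by gene, the differences of responses had medians of 1.92, -0.77 and 0.32 for these 3 lists.

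Among the other lists, interferon-stimulated genes stood at a median of 0.53 in shRB and -0.94 in vector cells. Taken gene by gene, the difference of responses had a median of 0.97. Of 17 tested, in shRB cells 4 rose, 3 fell and 10 were not called, beside 12.4% and 20.4% of all genes. In vector cells 0 rose, 6 fell and 11 were not called. IFI6, an interferon-induced mitochondrial protein, read 5.53 and 5.87 on the growing and 10.28 and 6.47 on the senescent shRB arrays. With vector, IFI6 read 5.65 and 5.35 growing and 3.31 and 3.30 senescent. Senescent shRB replicate 1 stood far above senescent shRB replicate 2. The rise of 2.67 ± 0.80 (adjusted p = 0.0137) was not called without growing shRB replicate 1 or senescent shRB replicate 1 or with a fit of the compared arrays alone (adjusted p 0.0825 to 0.444). Its difference of 4.87 ± 1.14 (adjusted p = 0.0237) was not called without any 1 of the 8 arrays other than senescent shRB replicate 2 or with no filter on low values or a fit of the compared arrays alone (adjusted p 0.0569 to 0.139). ISG20, an exonuclease, read 3.28 and 3.66 on the growing and 6.18 and 5.08 on the senescent shRB arrays, with a difference of 1.99 ± 0.41 (adjusted p = 0.0101). The ISG20 difference was not called without growing shRB replicate 1, senescent shRB replicate 1 or growing vector replicate 1 or with a fit of the compared arrays alone (adjusted p 0.0642 to 0.105). Without senescent shRB replicate 1 the median of the list in shRB cells was -0.08. GBP1, a guanylate-binding protein, IFIT5 and IFITM3 fell with shRB, by 3.08 ± 0.25 (adjusted p = 5.5e-09), 2.40 ± 0.41 (adjusted p = 9.98e-05) and 1.09 ± 0.36 (adjusted p = 0.0227), the last not called without growing shRB replicate 1 or senescent shRB replicate 2 (adjusted p 0.139 to 0.184). IFIT5 had an shRB change of -1.44 with the mean of all probe sets. IFI6 had an shRB change of 0.77 without senescent shRB replicate 1. IFI6 had an shRB change of 4.57 without senescent shRB replicate 2. ISG20 had a difference from vector of 3.17 with the mean of all probe sets. IFI6 had a difference from vector of 2.97 without senescent shRB replicate 1.

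Of 16 metallothionein and antioxidant genes, in shRB cells 5 rose, 3 fell and 8 were not called, the rises being those of MT1F, MT1X, MT1G, MT1H and MT2A, and in vector cells 0 rose, 3 fell and 13 were not called. MT1F, a metal-binding protein, read 10.44 and 10.29 on the growing and 11.58 and 11.61 on the senescent shRB arrays. With vector, MT1F read 11.09 and 10.97 growing and 11.59 and 11.58 senescent. Its rise of 1.23 ± 0.36 (adjusted p = 0.0112) was not called without growing shRB replicate 2 or senescent shRB replicate 2 (adjusted p 0.0571 to 0.0698), and no difference of responses in the list was called; the metallothionein genes are near copies, and cross-hybridisation was not tested. Of 23 sterol and fatty acid synthesis genes, in shRB cells 2 rose, 4 fell and 17 were not called, near the 12.4% and 20.4% of all genes. In vector cells 8 rose, 0 fell and 15 were not called, with 0 differences called. INSIG1, a sterol sensor partner, rose in both, by 2.49 ± 0.42 (adjusted p = 0.000106) and 2.27 ± 0.42 (adjusted p = 0.000392). IDI1, an isoprenoid enzyme, rose by 1.11 ± 0.36 (adjusted p = 0.022) in shRB cells. The IDI1 call was lost without any 1 of the 4 arrays or with the mean of all probe sets (adjusted p 0.0615 to 0.116). Of 26 lysosome and autophagy genes, in shRB cells 5 rose, 4 fell and 17 were not called. In vector cells 6 rose, 3 fell and 17 were not called, where 9.21% and 16.2% of all genes rose and fell. NEU1, a sialidase, read 5.70 and 5.43 on the growing and 5.88 and 5.07 on the senescent shRB arrays. With vector, NEU1 read 5.66 and 5.77 growing and 7.13 and 7.50 senescent, with the vector groups apart and the shRB groups overlapping, a difference of -1.69 ± 0.39 (adjusted p = 0.0237). The NEU1 difference was not called without any 1 of the 8 arrays other than senescent vector replicate 1 and senescent shRB replicate 1 or with a fit of the compared arrays alone (adjusted p 0.0572 to 0.141). Of 26 glycolysis and hypoxia genes, in shRB cells 5 rose, 4 fell and 17 were not called, and of 15 apoptosis regulators, 5 rose, 1 fell and 9 were not called. BCL2A1, a survival protein under NF-kB, read 3.86 and 3.34 on the growing and 11.40 and 11.35 on the senescent shRB arrays. BCL2A1 rose by 7.78 ± 0.62 (adjusted p = 4.04e-09). Of 15 prostaglandin genes, PTGS2, the inducible cyclooxygenase, rose by 7.99 ± 0.73 (adjusted p = 2.44e-08) and PLA2G4A, which frees arachidonate, by 2.12 ± 0.51 (adjusted p = 0.00269), while 3 fell. The PLA2G4A call was lost without senescent shRB replicate 1 (adjusted p = 0.0576). IDI1 had an shRB change of 0.38 with the mean of all probe sets.

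Outside the lists, the largest changes with shRB included genes of other roles. EHF, an ETS factor of epithelia, read 2.36 and 2.55 on the growing and 10.42 and 10.64 on the senescent shRB arrays. EHF rose by 8.07 ± 0.39 (adjusted p = 1.78e-12), against 7.10 ± 0.39 (adjusted p = 2.24e-11) in vector cells. CST1, a cystatin, rose by 8.01 ± 0.88 (adjusted p = 3.58e-07), and in vector cells the senescent arrays read 8.08 and 4.73. MEST, an imprinted mesodermal gene, had the largest fall of the genes tested in shRB cells, from 10.87 and 11.32 to 4.19 and 3.98, by 7.01 ± 0.74 (adjusted p = 2.08e-07). NTN4, a netrin, fell by 6.95 ± 0.34 (adjusted p = 1.72e-12), ATP8B1, a phospholipid flippase, by 6.48 ± 0.53 (adjusted p = 5.38e-09) and EFEMP1, a fibulin, by 6.28 ± 0.52 (adjusted p = 5.8e-09). RPS6KA2, a ribosomal S6 kinase, ZFPM2, a GATA cofactor, and APOBEC3B, a cytidine deaminase, fell by 5.84 ± 0.46 (adjusted p = 2.78e-09), 5.80 ± 0.71 (adjusted p = 1.74e-06) and 5.95 ± 0.79 (adjusted p = 5.21e-06). These 7 also fell in vector cells, by 4.05 (ATP8B1) to 5.28 (ZFPM2). EHF, ATP8B1, EFEMP1 and RPS6KA2 had shRB changes of 1.96, -3.07, -4.01 and -2.34 with the mean of all probe sets.

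The difference of responses was then taken over all genes, to find the genes whose response to ras differed with the hairpin. It was called for 169 genes (1.99%), 114 more positive with shRB and 55 more negative, and 1004 had an unadjusted p under 0.05. The excess of positive differences nearly vanished without senescent shRB replicate 1 and grew without senescent shRB replicate 2. The median difference of all genes was -0.04 with every array kept. It was -0.10 without senescent shRB replicate 1 and 0.02 without senescent shRB replicate 2. Of the 169, 55 were called with each of the 8 arrays left out in turn, and 39 under all 16 alternatives, which add 8 other settings of filter, scaling, probe sets and fit, wherever they were tested, 33 positive and 6 negative. The 114 genes with positive differences had a median shRB minus vector value of 2.35 in senescent and 0.02 in growing cells, and the 55 negative ones had medians of -1.69 and 0.22. These genes were chosen by the gap between those 2 values on the same arrays, so the gap is no separate support. Between growing shRB and growing vector cells 16 genes (0.188%) were called, 7 higher (0.0822%) and 9 lower (0.106%), against 830 (9.75%) between senescent shRB and vector cells. Among the 16, CCNE2 and CDC7 were higher with shRB (2.15 and 1.15) and NR4A2 lower (-2.74), beside RB1, CXCL8 and MMP3 given above. Among the 28 genes with a positive difference that fell in vector cells and were not called in shRB cells were TYMS, RFC4 and MCM6. Another 37 rose in shRB cells and were not called in vector cells, and 35 rose in both.

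PPBP, another CXCR2 chemokine gene, known from platelets, read 2.74 and 2.58 on the growing and 9.72 and 8.95 on the senescent shRB arrays. With vector, PPBP read 2.72 and 2.81 growing and 4.51 and 4.59 senescent. Of these groups only senescent shRB stood above 5, the value a gene had to pass on 2 arrays to be tested. That is therefore no separate support for the difference, which was 4.89 ± 0.57 (adjusted p = 2.43e-05). SERPINB4 and SERPINB3, squamous cell carcinoma antigens that inhibit proteases, read 3.91 and 3.65 on the growing and 10.14 and 8.27 on the senescent shRB arrays and 3.47 and 3.11 on the growing and 6.76 and 6.55 on the senescent shRB arrays. In vector cells SERPINB4 read 3.79 and 3.86 growing and 4.88 and 3.45 senescent. The differences were 5.09 ± 0.68 (adjusted p = 0.000128) and 3.60 ± 0.38 (adjusted p = 1.1e-05), but the 2 genes are near copies and whether each probe set reads 1 of them was not tested. For both, only the senescent shRB values given here passed 5, so the limit given for PPBP applies to them too. RGS5, a brake on G protein signalling known from pericytes, read 3.41 and 4.10 on the growing and 9.06 and 9.44 on the senescent shRB arrays. With vector, RGS5 read 4.35 and 4.48 growing and 4.96 and 5.38 senescent. The RGS5 responses differed by 4.74 ± 0.55 (adjusted p = 2.43e-05). RASD1, a RAS-related GTPase induced by glucocorticoid, read 4.33 and 4.27 on the growing and 9.36 and 9.00 on the senescent shRB arrays. With vector, RASD1 read 4.50 and 4.52 growing and 5.46 and 5.50 senescent. The RASD1 responses differed by 3.91 ± 0.47 (adjusted p = 3.23e-05). These 5 differences were called under all 16 alternatives. GJB2, the gap junction gene of connexin 26, read 3.29 and 3.32 on the growing and 10.13 and 10.11 on the senescent shRB arrays. With vector, GJB2 read 3.12 and 3.34 growing and 6.69 and 5.62 senescent. The GJB2 responses differed by 3.90 ± 0.97 (adjusted p = 0.0383). The GJB2 difference was not called without any 1 of the 8 arrays other than senescent vector replicate 1 or with no filter on low values (adjusted p 0.0847 to 0.207). RGS5 had a difference from vector of 1.70 with the mean of all probe sets.

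Some genes moved in opposite directions in the 2 kinds of cell, 8 up with shRB and down with vector, and 2 the other way. IDH2, the mitochondrial isocitrate dehydrogenase, read 8.34 and 7.90 on the growing and 9.25 and 8.83 on the senescent shRB arrays. With vector, IDH2 read 7.30 and 7.66 growing and 4.92 and 4.93 senescent. Its vector groups lay far apart and its shRB groups close, with changes of -2.55 ± 0.28 (adjusted p = 6.75e-07) and 0.92 ± 0.28 (adjusted p = 0.0142), and the difference of 3.48 ± 0.39 (adjusted p = 2.12e-05) held under all 16 alternatives while the shRB rise was not called without growing shRB replicate 2 or senescent shRB replicate 1 or with the mean of all probe sets (adjusted p 0.06 to 0.15). TMEM106C, a membrane protein gene, read 8.67 and 8.84 on the growing and 10.13 and 9.34 on the senescent shRB arrays. With vector, TMEM106C read 7.89 and 7.13 growing and 5.20 and 5.62 senescent. The TMEM106C responses differed by 3.08 ± 0.51 (adjusted p = 0.00136), and its shRB rise was not called without growing shRB replicate 1 or 2 or senescent shRB replicate 1 or with no filter on low values or arrays set to one median (adjusted p 0.0536 to 0.334). FANCL, SAMHD1 and IFI6, described above, were among the 8. DDIT4L, a stress-induced inhibitor of mTOR, read 6.54 and 6.66 on the growing and 5.24 and 5.50 on the senescent shRB arrays. With vector, DDIT4L read 5.55 and 5.85 growing and 7.06 and 7.76 senescent. It fell with shRB by 1.24 ± 0.36 (adjusted p = 0.0108) and rose with vector by 1.71 ± 0.36 (adjusted p = 0.00115). The DDIT4L responses differed by -2.95 ± 0.51 (adjusted p = 0.00219), and the shRB fall was not called without growing shRB replicate 2 or senescent shRB replicate 1 (adjusted p 0.0642 to 0.0727). IDH2 had an shRB change of 0.49 with the mean of all probe sets. IDH2 and TMEM106C had differences from vector of 1.99 and 1.57 with the mean of all probe sets.

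The largest negative differences included genes of the cytoskeleton, of RNA binding and of matrix control. NEXN, an actin-binding protein, read 10.92 and 11.18 on the growing and 6.59 and 7.09 on the senescent shRB arrays. With vector, NEXN read 11.29 and 11.10 growing and 9.58 and 9.86 senescent. The NEXN responses differed by -2.74 ± 0.29 (adjusted p = 1.1e-05). AJUBA, a LIM protein of junctions and of the Hippo pathway, read 9.76 and 10.00 on the growing and 6.65 and 6.29 on the senescent shRB arrays. With vector, AJUBA read 9.23 and 9.37 growing and 8.17 and 9.08 senescent. The AJUBA responses differed by -2.74 ± 0.42 (adjusted p = 0.000701). For both, the senescent shRB arrays lay below all the other arrays of the 4 groups. RBMS3, an RNA-binding protein, and PDE5A, a phosphodiesterase of cyclic GMP, had differences of -2.95 ± 0.41 (adjusted p = 0.000229) and -2.31 ± 0.39 (adjusted p = 0.00169), both not called with the mean of all probe sets (adjusted p = 0.0808 and 0.149). RECK, an inhibitor of metalloproteinases, read 10.96 and 10.91 on the growing and 5.73 and 4.42 on the senescent shRB arrays. With vector, RECK read 11.40 and 10.70 growing and 7.57 and 8.05 senescent. The RECK responses differed by -2.62 ± 0.48 (adjusted p = 0.00375). The RECK difference was not called with the mean of all probe sets or a fit of the compared arrays alone (adjusted p 0.0859 to 0.231). GLT8D2, a glycosyltransferase gene, and NTN4 had differences of -2.92 ± 0.57 (adjusted p = 0.0064) and -2.56 ± 0.47 (adjusted p = 0.00449). GLT8D2 lost its call without senescent vector replicate 2 or with the mean of all probe sets (adjusted p 0.0576 to 0.0849), and NTN4 with a fit of the compared arrays alone (adjusted p = 0.0868). AJUBA, RBMS3, PDE5A, RECK and GLT8D2 had differences from vector of -1.36, -0.89, -0.88, -0.61 and -1.78 with the mean of all probe sets.

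The lines with hairpins against p107 and p130, in which RB1 read 9.55 and 9.91 when growing, gave further responses with RB present. Ras changed 3251 genes (38.2%) with shp107 and 2782 (32.7%) with shp130. The median change of the 22 licensing genes was -1.18 with shp107 and -0.92 with shp130, beside -0.46 with shRB. For the 61 mitosis genes the medians were -2.84 and -2.54, beside -2.84. TYMS changed by -0.24 with shRB, -3.93 with vector, -3.34 with shp107 and -3.55 with shp130, and MCM6 by -0.21 with shRB, -2.98 with vector, -2.24 with shp107 and -3.22 with shp130. CCNE2 changed by 2.06 with shRB, -0.89 with vector, -1.87 with shp107 and -3.24 with shp130, and CDC7 by 2.02 with shRB, -0.39 with vector, -0.74 with shp107 and -0.75 with shp130. In each of these 4 genes the shRB value was the highest of the 4. All had a called positive difference from vector, so only the order against shp107 and shp130 was open. That order rests on the same shRB arrays. PPBP changed by 6.67 with shRB, 1.78 with vector, 1.94 with shp107 and 2.25 with shp130, and SERPINB4 by 5.42 with shRB, 0.34 with vector, 0.93 with shp107 and -0.52 with shp130. CKS2, in contrast, changed by -2.42 with shRB, -0.28 with vector, -2.79 with shp107 and -0.13 with shp130, so that its fall with shRB was no larger than with shp107. RGS5 changed by 5.49 with shRB, 0.76 with vector, 3.73 with shp107 and 1.36 with shp130. Against the mean response of the 3 lines with RB, the shRB response differed for 296 genes (3.48%), 188 positive and 108 negative. Without senescent shRB replicate 1 the negative calls outnumbered the positive ones. This test shares the 4 shRB and the 4 vector arrays with the one before it. The count was 588 without senescent shp107 replicate 1, 128 without growing shRB replicate 1 and 139 without growing shRB replicate 2. By it, 7 of 22 licensing, 7 of 25 DNA synthesis and 10 of 24 inflammatory genes had a positive difference and 0 a negative one, against 2.21% of all genes, and 7 of 61 mitosis genes had a negative one, against 1.27%. LMNB1 and HELLS, which missed the threshold against vector alone, had differences of 2.48 ± 0.56 (adjusted p = 0.0128) and 3.35 ± 0.61 (adjusted p = 0.00246). RGS5 had an shRB change of 2.03 with the mean of all probe sets.

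Experiment 2 tested the senescent side of these differences on other arrays, without growing shRB cells. Between senescent shRB and senescent vector cells, 1710 genes (20.1%) were called there. Of the 114 positive differences, 97 had a higher value in senescent shRB than in senescent vector cells of experiment 2, 66 of them called (10.9% of all genes) and 0 were called lower. Of the 55 negative ones, 43 were lower there, 19 of them called (9.24% of all genes), and 1 was called higher. TYMS read 7.27 and 7.16 on the senescent vector and 9.95 and 9.79 on the senescent shRB arrays of experiment 2, a difference of 2.65 ± 0.17 (adjusted p = 0.00015). MCM6 read 6.77 and 6.66 and 8.94 and 9.28, and CCNE2 3.23 and 3.27 and 7.67 and 7.48, differences of 2.40 ± 0.19 (adjusted p = 0.000287) and 4.32 ± 0.18 (adjusted p = 4.35e-05). All shRB arrays were above all vector arrays for these 3. CXCL6 read 8.35 and 8.82 and 11.95 and 11.56, a difference of 3.17 ± 0.25 (adjusted p = 0.000287), and PPBP 5.28 and 5.54 and 8.38 and 7.54, a difference of 2.55 ± 0.27 (adjusted p = 0.00072). CXCL8 and MMP3 did not differ past the threshold (0.07 ± 0.17, adjusted p = 0.799 and 0.12 ± 0.28, adjusted p = 0.787). RASD1, stable in experiment 1, showed 0.03 ± 0.17 (adjusted p = 0.93), and CKS2 -0.26 ± 0.25 (adjusted p = 0.488), NEXN -0.52 ± 0.20 (adjusted p = 0.103) and AJUBA -0.98 ± 0.23 (adjusted p = 0.0231). For mitosis genes the 2 experiments gave different counts. In experiment 1, 4 of 61 were called higher and 1 lower in senescent shRB than in senescent vector cells (median -0.12), beside 5.98% and 3.77% of all genes, against 32 higher and 0 lower in experiment 2 (median 0.69). PRC1 differed by -0.11 ± 0.69 (adjusted p = 0.958) in experiment 1 and 1.22 ± 0.18 (adjusted p = 0.0039) in experiment 2, and ANLN by -1.56 ± 0.56 (adjusted p = 0.0926) and 1.48 ± 0.19 (adjusted p = 0.00197). RB1 was higher in the senescent shRB cells of experiment 2 than of experiment 1, at 6.64 and 7.08 against 4.49 and 3.64. The experiments were not tested against each other.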

How the data were processed

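RNA of IMR90 cells was hybridised to Affymetrix arrays, 32 in experiment 1 (16 groups of 2) and 6 in experiment 2. The deposited values are log2 expression per probe set, made by the authors with GCRMA per the submitters' processing notes. GCRMA corrects background by probe sequence, and values near 3 carry no order. Whether all arrays were normalized in 1 run was not given in the sources used here.
Of 54613 probe sets, 41091 named 1 gene in the platform annotation, 1801 several and 11721 none. Each of 19775 genes was read from its brightest single-gene probe set, and the 8511 above log2 5 on at least 2 arrays of experiment 1 were tested with limma 3.58.1 (R 4.3.3) in 1 fit of 16 group means, with residual spread from growing, low serum, confluent and senescent groups alike. Experiment 2 was fitted apart. P-values were adjusted by Benjamini-Hochberg.
Analysis and plotting used Python 3.11.15, pandas 2.3.3, numpy 2.4.6 and matplotlib 3.10.9.
Members and gene lists were chosen with earlier results of these data known. The text names the targeted genes, the largest rises, falls and differences among called genes, and, per list, the largest called members and those called with vector alone; provisional symbols were left out. IL6 was added after its values were seen. A gene that the rule names is not reported here.
The alternatives were other filters, quantile or median scaling, the mean of all probe sets, a fit of the compared arrays alone, an intensity trend with robust prior, a replicate block and each array left out. In simulated data of 8511 genes, 67, 67 and 66 genes were given log2 changes of 1, 2 and 3 in senescent shRB cells. The fit recovered 34.3%, 88.1% and 98.5% of them between senescent and growing shRB cells, with 7 false calls. As differences between responses it recovered 14.9%, 64.2% and 93.9%, with 6 false calls. Far more genes were called in the data than were changed in the simulation, so these shares may not hold for the data.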

Additional observations from a re-analysis of the deposited data

Results flagged for a closer look

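The response to ras itself differed between shRB and vector cells by the interaction term of the limma fit for 169 genes, and between shRB cells and the mean of the 3 lines with RB for 296 genes. The values below are shRB minus vector differences of log2 response for the genes named in the text, each with an adjusted p under 0.05 over 8511 genes, and several are near that threshold, as given beside each gene above.

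Among genes of chemokines and interleukins, the differences were 5.21 for IL33, 4.89 for PPBP, 4.09 for CXCL8, 3.25 for CXCL6 and 3.04 for IL11. Among genes of proteases, protease inhibitors and matrix, the differences were 5.09 for SERPINB4, 4.03 for MMP3, 3.60 for SERPINB3, 3.54 for ESM1, 2.34 for CTSS, 1.63 for COL10A1, -1.26 for LOX, -2.56 for NTN4, -2.60 for LUM and -2.62 for RECK. Among genes of DNA replication and repair, the differences were 3.68 for TYMS, 3.23 for RFC4, 2.92 for FANCL, 2.77 for MCM6, 2.60 for TIPIN, 2.45 for MCM5, 2.41 for CDC7, 2.29 for FANCI, 2.25 for MCM4, 2.22 for FEN1, 1.88 for MCM7, 1.82 for SAMHD1, 1.75 for MTHFD1, 1.67 for RRM1 and 1.63 for MSH6. Among genes of cell cycle and mitosis, the differences were 3.55 for CENPK, 2.95 for CCNE2, 2.10 for CCNE1, -1.44 for CDCA8, -2.00 for KIF4A and -2.14 for CKS2. Among genes of cytoskeleton, adhesion and growth factor signalling, the differences were 4.74 for RGS5, 3.91 for RASD1, 3.90 for GJB2, 2.29 for MYH10, 1.80 for PMEPA1, -1.43 for CCN2, -1.55 for BDNF, -2.31 for PDE5A, -2.67 for FGF5, -2.74 for NEXN and -2.74 for AJUBA. Genes of other roles had differences of 4.87 for IFI6, 3.48 for IDH2, 3.08 for TMEM106C, 2.01 for NFKBIZ and 1.99 for ISG20, and negative ones of -1.69 for NEU1, -2.92 for GLT8D2, -2.95 for RBMS3 and -2.95 for DDIT4L.

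No group of the series has more than 2 arrays, so no single array was set against its own group.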

How the results depend on the processing

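With 1 array left out in turn, the genes called between senescent and growing shRB cells numbered 1910 to 2235 (703 to 867 higher, 1052 to 1512 lower), those called in vector cells 1337 to 1490, those whose response differed from vector 84 to 145, and those that differed from the mean of the 3 lines with RB 128 to 588. The mean of all probe sets of a gene gave 1216 genes changed at least 2-fold in shRB cells in place of 1857, and a fit of the compared arrays alone gave 107 differences from vector in place of 169. Between senescent shRB and vector cells, 1710 genes were called in experiment 2 and 830 in experiment 1. The cause of these shifts was not tested; a left-out array also leaves fewer samples.

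Of the changes of named genes in shRB cells under an alternative, 1688 kept direction and side of the threshold, 38 were no longer called, 3 were newly called and 27 had the other sign, all of them changes that were not called in the first place. These were 0.0702 for MCM7 and 0.0854 for NEU1 with quantile normalization, -0.0127 for RBL2 with arrays set to 1 median, and, with the mean of all probe sets, -0.322 for MCM4, 0.00498 for MCM6, -0.00488 for FEN1, -0.0822 for MSH6 and 0.539 for CBX5. With an array left out, the changes ran from -0.0875 to 0.139 for RBL2, -0.342 to 0.293 for MCM7, -0.0538 to 0.450 for RFC4, -0.720 to 1.26 for EZH2, -0.264 to 1.02 for HELLS, -0.497 to 0.319 for NEU1, -1.81 to 0.219 for RBL1, -0.295 to 0.682 for HRAS, -0.988 to 0.608 for CENPK, -0.514 to 0.0898 for MCM6, -0.939 to 0.232 for MCM5 and -1.21 to 0.784 for CBX5. Of the differences of responses, 773 stayed, 190 were no longer called, 10 were newly called and 0 had the other sign. The cause was not tested.

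With the replicate number as a block, 2806 genes were called in shRB cells, 2173 in vector cells, 191 in the difference from vector and 316 in the difference from the mean of the 3 lines with RB. The number does not pair the samples: deviations of growing and senescent shRB arrays with the same number correlated with r = 0.03, and 38 of 120 pairs of groups were over 0.1. Quantile normalization moved the higher and lower calls in shRB cells to 1432 and 1506, and arrays set to one median to 956 and 1793. The newly called values are given beside their genes above. Signal near background limits genes near log2 3, whose values carry no order.

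Of the list medians of shRB changes and of differences, 740 values stayed within the spread of the arrays and 16 moved beyond it, all of them medians of shRB changes. With genes above log2 6, the median was -3.76 for mitosis and 0.44 for p53 targets in place of -2.84 and 0.18. With the mean of all probe sets it was 4.78 for secreted inflammatory factors, -2.57 for mitosis, -0.82 for collagens and -0.85 for contractile genes, in place of 6.37, -2.84, -0.65 and -1.08. Without senescent shRB replicate 1 it was -0.24 for sterol genes in place of -0.05.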

Other observations

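Of the endothelial markers, whose other members stayed under log2 5 in shRB cells, CLDN5 and TEK passed the filter on low values. CLDN5, a claudin of endothelial tight junctions, changed from growing to senescent by 3.29 ± 0.27 (adjusted p = 5.89e-09) with shRB and by -0.18 ± 0.27 (adjusted p = 0.686) with vector, a difference of 3.47 ± 0.38 (adjusted p = 1.68e-05). TEK, the angiopoietin receptor, changed by -1.43 ± 0.56 (adjusted p = 0.0562) with shRB and -1.69 ± 0.56 (adjusted p = 0.0306) with vector. Neither gene was chosen by the rule for named genes, and both are given after their values were seen. Above log2 5 on both arrays lay 2 endothelial markers in senescent shRB cells, and 1 in growing shRB and in each vector group. CLDN5 may thus have been tested only through the group where it was high, so its difference is no separate support.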
